A study of Rattus norvegicus with 22 samples.

Results

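The genes described here encode the nuclear subunits of oxidative phosphorylation, grouped by the enzyme complex they build, in germ cells of male rats. Members were the array probes whose RefSeq accession leads to a rat symbol that starts with Ndufa, Ndufb, Ndufc, Ndufs, Ndufv, Sdha to Sdhd, Uqcr, Cyc1, Cox4 to Cox8 or Atp5. Each gene was represented by its brightest probe. This gave 85 of the 15150 genes with a symbol, from 107 of 30367 probes. Complex I had 32 of them, complex II 4, complex III 8, complex IV 18 and complex V 15. The same prefixes also caught 8 assembly factors (Ndufaf and Sdhaf genes), which build the complexes without being part of them and are kept apart. Cox6c-ps1, a transcribed pseudogene, is among the complex IV genes. Cyc1, Cox7a1, Cox7b2, Ndufa4l2 and Atp5mc3 were not analysed here.

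RNA was measured on 22 single-colour Agilent arrays in 4 groups. They were round spermatids of rats given cyclophosphamide (6 arrays), round spermatids of rats given saline (6), pachytene spermatocytes of rats given cyclophosphamide (5) and pachytene spermatocytes of rats given saline (5). Cyclophosphamide, an alkylating anticancer drug, was given by gavage at 6 mg/kg on 6 days per week for 4 weeks, and controls received saline on the same schedule. Cells were separated by size through sedimentation at unit gravity (STA-PUT), and the labels give neither strain nor age. Each array was taken as a separate rat, which the labels do not state outright.

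Oxidative phosphorylation takes electrons from NADH at complex I and from succinate at complex II, passes them through complex III and cytochrome c to oxygen at complex IV, and uses the resulting proton gradient to make ATP at complex V. Most subunits are encoded in the nucleus and a small set in mitochondrial DNA. Pachytene spermatocytes are in meiotic prophase, and round spermatids are the haploid cells that follow meiosis. Germ cells are known for using lactate and pyruvate in their mitochondria and for testis forms of some subunits, while later spermatids build up sperm-specific glycolytic enzymes. None of the mitochondrially encoded subunits could be matched to a probe, so every value below concerns nuclear genes.

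Promoters are shown because genes of this system are known to share binding sites for the factors NRF1, GABP (an ETS family factor) and YY1. RefSeq promoters of assembly GRCr8, 300 bases each (250 before the start and 50 after), were found for 75 of the 85 genes. Each was searched on both strands for the letters GCGCANGCG (NRF1), CCGGAAG (ETS family), AAGATGGC (YY1), TCAAGGTCA (ERR) and TGACGTCA (CRE). The printed promoters are those of Sdha, with 3 NRF1 matches, Uqcrc2, with 2 ETS matches, Cox8a, with ETS, YY1 and CRE matches, and Ndufa5, a gene that was higher in round spermatids, with 1 NRF1 match. Capitals mark the matches, 5′ to 3′ on the gene's strand.
Sdha (chr1:30764303-30764602, strand +): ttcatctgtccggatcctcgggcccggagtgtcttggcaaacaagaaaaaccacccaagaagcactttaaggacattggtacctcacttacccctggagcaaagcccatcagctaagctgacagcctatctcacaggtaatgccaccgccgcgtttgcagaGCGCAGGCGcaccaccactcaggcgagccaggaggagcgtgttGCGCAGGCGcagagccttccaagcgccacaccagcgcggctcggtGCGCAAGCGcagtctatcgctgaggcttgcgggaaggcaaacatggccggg
Uqcrc2 (chr1:184598990-184599289, strand +): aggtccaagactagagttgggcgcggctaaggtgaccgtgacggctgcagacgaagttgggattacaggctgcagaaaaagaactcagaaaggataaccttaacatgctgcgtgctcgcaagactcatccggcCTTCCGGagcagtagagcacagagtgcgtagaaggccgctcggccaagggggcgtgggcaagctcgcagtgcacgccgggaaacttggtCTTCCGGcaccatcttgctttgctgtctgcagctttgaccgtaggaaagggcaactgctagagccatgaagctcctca
Cox8a (chr1:213833574-213833873, strand -): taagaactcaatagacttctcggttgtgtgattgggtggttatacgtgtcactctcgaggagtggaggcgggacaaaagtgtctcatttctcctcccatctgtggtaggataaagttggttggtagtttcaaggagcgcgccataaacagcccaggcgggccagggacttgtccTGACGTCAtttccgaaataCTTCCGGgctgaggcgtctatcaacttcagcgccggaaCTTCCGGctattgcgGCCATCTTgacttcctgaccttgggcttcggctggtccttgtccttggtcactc
Ndufa5 (chr4:53971186-53971485, strand -): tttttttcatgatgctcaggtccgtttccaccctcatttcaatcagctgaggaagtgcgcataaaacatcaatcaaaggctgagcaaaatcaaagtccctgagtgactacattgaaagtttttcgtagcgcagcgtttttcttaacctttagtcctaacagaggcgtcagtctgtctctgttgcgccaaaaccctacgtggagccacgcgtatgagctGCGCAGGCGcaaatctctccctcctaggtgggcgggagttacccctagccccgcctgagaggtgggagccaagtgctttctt

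The NRF1 letters stood in 24.0% of the members' promoters, against 11.9% of 9669 promoters of genes tested on the array and 5.8% of all 33469 promoters. The ETS letters stood in 32.0% of the members' promoters, against 16.4% of those of genes tested and 8.7% of all. For YY1 the shares were 17.3% of the members, 4.9% of genes tested and 3.2% of all. The ERR letters were found in 1.3% of the members (1 promoter), 0.2% of genes tested and 0.4% of all. For CRE the shares were 5.3% of the members (4 promoters), 3.1% of genes tested and 1.8% of all. NRF1 letters read almost the same on both strands, so a match on each strand can be a single overlapping site. These shares are descriptions and were not tested, and a match is not a shown binding site. No match was found in the window of Atp5mc1, while Sdhc had 1 YY1 match just after its start. Among the 49 members with a promoter that were lower in round spermatids, 26.5% held the NRF1 letters, 30.6% the ETS letters and 18.4% the YY1 letters. Among the 7 that were higher the shares were 42.9%, 28.6% and 0.0%, which is 3, 2 and 0 promoters.

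The cell fractions carried the markers of their labels. All 10 spermatid markers (among them Prm2, a protamine, and Acrv1, an acrosomal protein) were higher in round spermatids than in pachytene spermatocytes of saline rats, and 6 of 8 pachytene markers were lower, with 1 (Ccna1) higher. Other cell types also differed. Summed over 7 Sertoli cell genes, the signal over each array's 75th percentile was 1.74 to 5.64 in saline round spermatids and 20.4 to 30.3 in saline pachytene spermatocytes. In round spermatids 6 of the 7 fell and 1 (Wt1) rose, and Dhh was not well above background on any round spermatid array. The 4 Leydig cell genes tested were lower in round spermatids, where the summed level of the 5 on the array was 1.53 to 3.18, against 4.53 to 8.48 in pachytene spermatocytes. The 7 macrophage genes were higher, with a summed level of 3.78 to 11.5 in round spermatids and 0.84 to 1.25 in pachytene spermatocytes, and so were the 3 peritubular myoid genes tested. Of 4 spermatogonial genes 3 were higher, with a summed level of 7.41 to 11.5 in round spermatids and 5.2 to 7.05 in pachytene spermatocytes. The part of these cells in the differences below was not tested.

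The first comparison asked how the transcripts differed between round spermatids and the pachytene spermatocytes that precede them, in rats given saline. Most oxidative phosphorylation genes were lower after meiosis. Of the 85 genes, 55 (64.7%) were lower, 8 (9.4%) were higher and 22 were not called at an adjusted p of 0.05 (limma, adjusted over all genes tested). Of all 19401 genes tested, 37.0% were lower and 38.3% were higher. Here and below, all genes tested include probes with no symbol, kept under the array's own name, while every member has a symbol. The median difference was -0.49 on the log2 scale over the 85 genes and 0.01 over all genes. Levels are log2 of the processed signal over the array's 75th percentile, so a lower value means a smaller share of the array's signal, and fewer transcripts per cell cannot be told apart from fewer cells that hold them. On the single arrays, the members' median shift from the saline pachytene mean was -0.57 to -0.38 in the 6 saline round spermatid samples and -0.15 to 0.12 in the 5 saline pachytene samples.

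**Figure D1:**
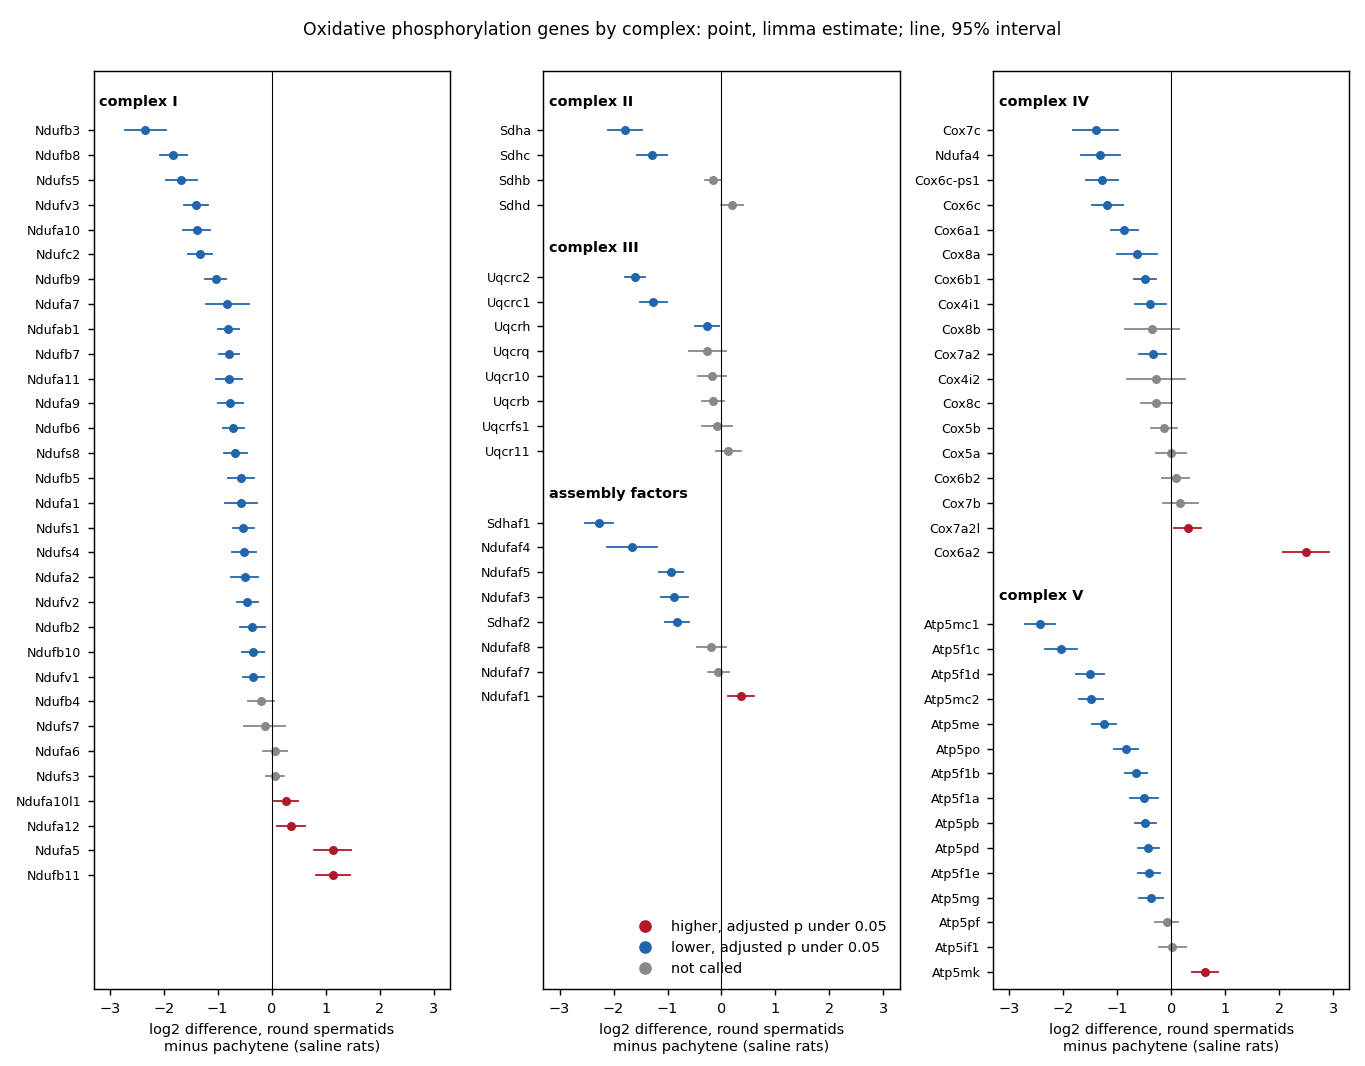
Log2 difference of the genes between the cell types of saline rats (round spermatids minus pachytene), by complex, with the limma 95% interval as a line and 1 gene left out. Genes in blue were lower and those in red higher, from Atp5mc1 at -2.43 to Cox6a2 at 2.49.

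The arrays lay on 4 slides, and slides 3 and 4 held pachytene samples alone. With slide as a block, 58 members were lower and 6 higher, and 72.7% of all genes tested were called in either direction. Slides 1 and 2 each held 3 saline round spermatid arrays against a single saline pachytene array, which was assumed to vary like the other groups. Fewer of all genes were called within a slide as well. A call missed within a slide therefore rests on fewer arrays. The members' median difference was -0.56 within slide 1 and -0.50 within slide 2, against -0.03 and 0.03 over all genes.

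Complex I, the NADH dehydrogenase, had 24 of 32 genes lower, 4 higher and a median difference of -0.54. Among all genes tested, 37.0% were lower and 38.3% higher. Ndufb3, an accessory subunit of its membrane arm, differed most among the falls. Its log2 level ran from -0.25 over a median of 0.32 to 0.97 in the 6 saline round spermatid samples, against 3.04, 2.44, 2.70, 2.79 and 2.32 in the 5 saline pachytene samples. Every round spermatid sample lay below every pachytene sample. Ndufb3 was 5.06-fold lower in round spermatids (95% interval 3.89 to 6.59, adjusted p = 1.18e-10). Ndufb8, also of the membrane arm, was 3.53-fold lower (2.97 to 4.20, adjusted p = 1.05e-11), with 3.89 to 4.29 in round spermatids and 5.66 to 6.16 in pachytene spermatocytes.

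Some accessory genes of complex I went the other way. Ndufa5, a subunit of the matrix arm, had log2 levels of 5.46 to 5.99 (median 5.66) in saline round spermatids, against 4.72, 4.81, 4.69, 4.19 and 4.35 in saline pachytene spermatocytes. The groups did not overlap, and Ndufa5 was 2.19-fold higher in round spermatids (1.73 to 2.78, adjusted p = 1.92e-06). Ndufb11, which lies on chromosome X in the gene table, was 2.20-fold higher (1.77 to 2.73, adjusted p = 4.14e-07). Its levels were 1.49 to 1.80 in round spermatids and 0.16 to 0.74 in pachytene spermatocytes. Ndufa12 (log2 difference 0.36, adjusted p = 0.0109) and Ndufa10l1 (0.27, adjusted p = 0.0269) rose less, and their groups overlapped. Another probe of Ndufa10l1 gave 0.11 (adjusted p = 0.328). In cyclophosphamide rats neither gene was called, with 0.26 for Ndufa12 and 0.16 for Ndufa10l1.

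As background, the X chromosome is silenced in pachytene spermatocytes, and 3 members lie on it. Beside Ndufb11, Ndufa1, a small membrane subunit of complex I, fell by 0.57 on the log2 scale in round spermatids (adjusted p = 0.00117). Its adjusted p was 0.0525 within slide 1 and 0.0715 within slide 2, with differences of -0.70 and -0.71. Cox7b, a complex IV subunit, differed by 0.17 (95% interval -0.16 to 0.49, adjusted p = 0.346). The 3 genes therefore had 1 rise, 1 fall and 1 value that was not called.

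Ndufa7 passed background on only 2 of the 6 arrays of saline round spermatids and on 4 of the 5 of saline pachytene spermatocytes, so its value is the least certain of the complex.

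Complex II, succinate dehydrogenase, links the citric acid cycle to the respiratory chain. Sdha, its flavoprotein, and Sdhc, a membrane anchor, were lower in round spermatids, and Sdhb and Sdhd were not called. That made 2 of 4 genes lower, against 37.0% of all genes tested. Sdha had log2 levels of 0.96 to 1.65 (median 1.48) in saline round spermatids, against 3.46, 2.81, 3.26, 3.37 and 3.06 in saline pachytene spermatocytes. The groups lay more than 1 log2 unit apart, and Sdha was 3.46-fold lower (2.79 to 4.28, adjusted p = 2.79e-10). Sdhc had -0.31 to 0.11 (median -0.06) in round spermatids, against 1.39, 0.75, 1.39, 1.40 and 1.11 in pachytene spermatocytes. Rat 16 was the lowest of the pachytene samples, yet above all round spermatid samples, and Sdhc was 2.44-fold lower (2.0 to 2.98, adjusted p = 1.66e-08). Sdhb, the iron-sulphur subunit, differed by -0.16 (adjusted p = 0.0534) and Sdhd, the other anchor, by 0.19 (adjusted p = 0.0762).

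In complex III, which passes electrons on to cytochrome c, 3 of 8 genes were lower and none was higher, against 37.0% lower and 38.3% higher among all genes tested. In saline rats the share of falls was thus near that of all genes. In cyclophosphamide rats 6 of the 8 were lower, against 40.4% of all genes tested. No complex III gene passed the test of the difference between the rats, given below. The called falls were led by Uqcrc2 and Uqcrc1, the core proteins of the matrix side. Uqcrc2 had log2 levels of 0.78 to 1.28 (median 1.07) in saline round spermatids, against 2.56, 2.58, 2.66, 2.65 and 2.64 in saline pachytene spermatocytes. The pachytene samples were nearly identical, and Uqcrc2 was 3.03-fold lower in round spermatids (2.66 to 3.45, adjusted p = 1.29e-12). Uqcrc1 was 2.40-fold lower (2.01 to 2.87, adjusted p = 4.11e-09), with 2.27 to 2.74 in round spermatids and 3.46 to 3.99 in pachytene spermatocytes. The other 6 genes, among them the Rieske iron-sulphur protein Uqcrfs1, had differences of -0.26 to 0.12 with their main probes. Of these, Uqcrh alone was called (-0.26, adjusted p = 0.0277). A dimmer second probe of Uqcrb, well above background on 10 of the 22 arrays, gave -1.82 (adjusted p = 2.97e-11), against -0.16 with its main probe.

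**Figure D2:**
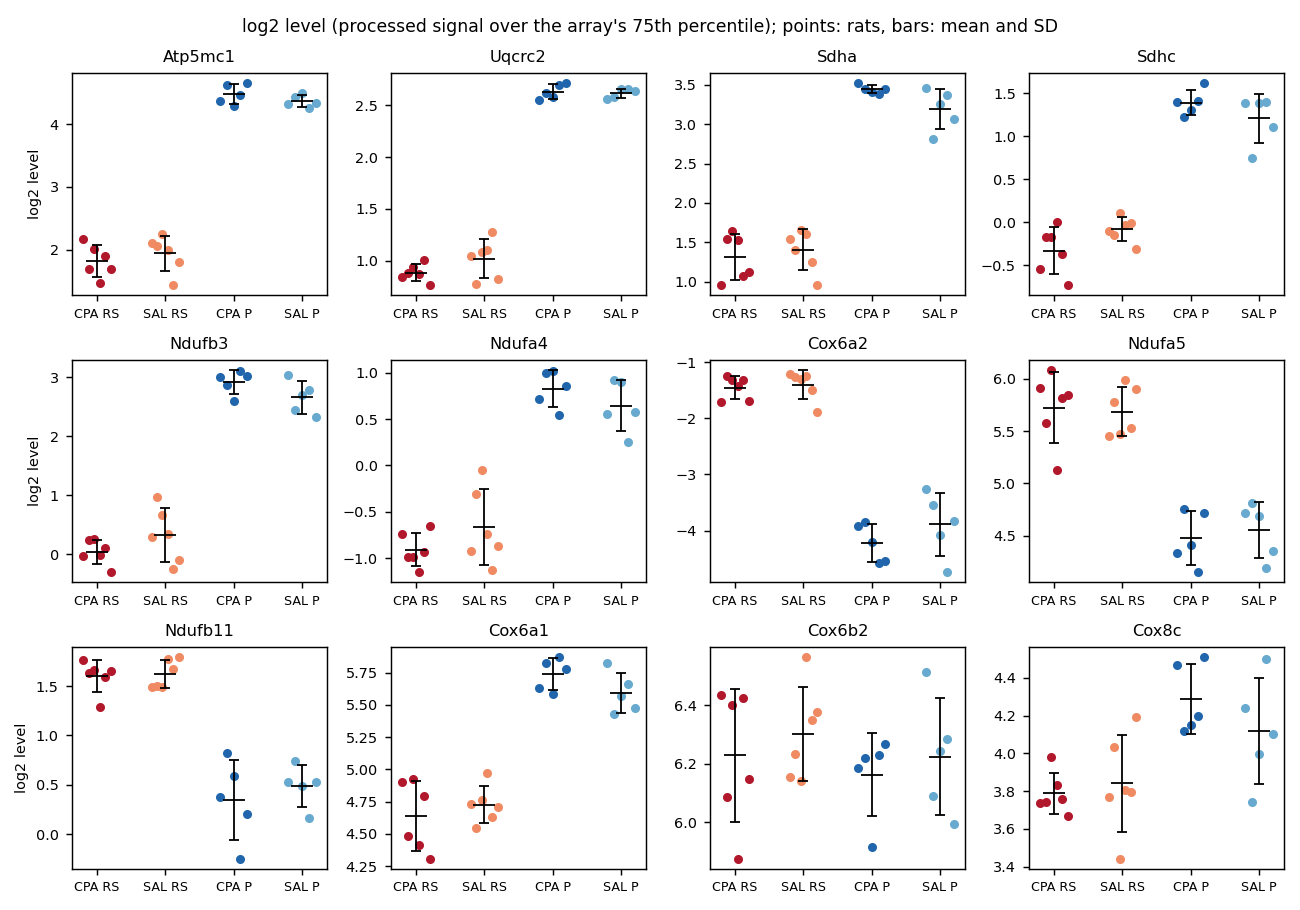
Log2 level (processed signal over the array's 75th percentile) of 12 genes in each sample, for round spermatids (RS) and pachytene spermatocytes (P) of cyclophosphamide (CPA) and saline (SAL) rats, with mean and SD as bars. Atp5mc1, Uqcrc2, Sdha, Sdhc, Ndufb3, Ndufa4 and Cox6a1 sit lower in round spermatids, Cox6a2, Ndufa5 and Ndufb11 higher. Cox6b2 overlaps between the cell types, and Cox8c overlaps in saline rats but not in cyclophosphamide rats.

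Complex IV, cytochrome c oxidase, had 9 of 18 genes lower, 2 higher and a median difference of -0.35. Among all genes tested, 37.0% were lower and 38.3% higher. Cox7c, a small membrane subunit, was 2.64-fold lower in round spermatids (1.98 to 3.54, adjusted p = 1.56e-06), with -0.13 to 0.41 in round spermatids and 1.07 to 2.20 in pachytene spermatocytes. Ndufa4, named for complex I but found as protein in complex IV, was 2.48-fold lower (1.94 to 3.18, adjusted p = 3.49e-07). Its levels were -1.13 to -0.04 in round spermatids and 0.26 to 0.92 in pachytene spermatocytes. Cox5a and Cox5b, which flank the catalytic core, differed by -0.01 and -0.13 and were not called.

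Several complex IV subunits come as alternative forms from separate genes. The Cox6a forms moved in opposite directions. Cox6a2, the form of heart and skeletal muscle, had log2 levels of -1.89 to -1.22 (median -1.29) in saline round spermatids, against -3.27, -3.55, -4.08, -4.74 and -3.83 in saline pachytene spermatocytes. It was 5.61-fold higher in round spermatids (4.18 to 7.54, adjusted p = 2.61e-10), the largest rise among the 85 genes. Cox6a1, the form of most tissues, was 1.82-fold lower (1.53 to 2.17, adjusted p = 1.03e-06), with 4.55 to 4.97 in round spermatids and 5.43 to 5.82 in pachytene spermatocytes. Levels of different probes cannot be set against each other, so which form was the more abundant is not known from these arrays.

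For Cox6b, the common form Cox6b1 fell 1.40-fold in round spermatids (1.22 to 1.61, adjusted p = 9.07e-05). Within slides 1 and 2 Cox6b1 differed by -0.47 (adjusted p = 0.0639) and -0.39 (adjusted p = 0.18). The testis form Cox6b2 had levels of 6.14 to 6.57 in round spermatids and 5.99 to 6.51 in pachytene spermatocytes. The groups overlapped, and the difference was 0.08 (95% interval -0.17 to 0.33, adjusted p = 0.57). For Cox8, the common form Cox8a was 1.56-fold lower (1.20 to 2.01, adjusted p = 0.00275), a log2 difference of -0.64. Within slides 1 and 2 the difference was larger, at -0.80 (adjusted p = 0.0515) and -0.90 (adjusted p = 0.0546). Cox8c, the testis form, differed by -0.28 (-0.56 to 0.01, adjusted p = 0.0704). With quantile normalization Cox8c was called, at -0.51 (adjusted p = 0.00026), and it was also called without saline pachytene rat 16 (-0.37) or saline round spermatid rat 29 (-0.35), while without saline pachytene rat 26 its difference was -0.18. Cox8b, of heart and muscle, differed by -0.36 (adjusted p = 0.176), by -0.65 without saline pachytene rat 16 (adjusted p = 0.00332) and by -0.17 without saline pachytene rat 28. It was called with quantile normalization (-0.53, adjusted p = 0.0355) and within slide 1 (-0.88, adjusted p = 0.00404).

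Among the remaining forms, Cox4i1, the common form of subunit 4, fell by 0.39 on the log2 scale in round spermatids (adjusted p = 0.0164), and its adjusted p was 0.0673 without saline pachytene rat 13 and 0.113 within slide 2, where it differed by -0.50. Cox4i2, the lung form, differed by -0.28 (adjusted p = 0.34), by -0.50 without saline round spermatid rat 16 (adjusted p = 0.0445) and by -0.13 without saline pachytene rat 25. It was called with slide as a block (-0.52, adjusted p = 0.0194). Cox7a2 fell by 0.35 (adjusted p = 0.0112), and within slide 2 it differed by -0.23 (adjusted p = 0.394). Cox7a2l, which joins complexes III and IV into a supercomplex, was 0.30 higher (adjusted p = 0.0245), but it missed the threshold with slide as a block (0.23, adjusted p = 0.158), with quantile normalization (0.09, adjusted p = 0.443) and without saline pachytene rat 16 (adjusted p = 0.0668).

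Complex V, ATP synthase, had 12 of 15 genes lower, 1 higher and a median difference of -0.51. Among all genes tested, 37.0% were lower and 38.3% higher. Atp5mc1, 1 of the genes for the c subunit of the rotating ring, fell most of all 85 members. It had log2 levels of 1.44 to 2.24 (median 2.02) in saline round spermatids, against 4.32, 4.43, 4.50, 4.26 and 4.33 in saline pachytene spermatocytes. The groups were over 2 log2 units apart, and Atp5mc1 was 5.39-fold lower (4.43 to 6.56, adjusted p = 1.13e-12). Atp5mc2, a further gene for the same protein, was 2.80-fold lower (2.40 to 3.28, adjusted p = 3.94e-11).

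Subunits of the F1 head and its rotor differed among themselves. Atp5f1c, the gamma subunit of the central stalk, was 4.13-fold lower in round spermatids (3.38 to 5.06, adjusted p = 1.69e-11), with 1.96 to 2.71 in round spermatids and 4.08 to 4.79 in pachytene spermatocytes. Atp5f1d, the delta subunit, fell by 1.51 on the log2 scale, while Atp5f1a and Atp5f1b, the alpha and beta subunits of the head, fell by 0.51 and 0.66. The 4 peripheral stalk genes ran from -0.84 (Atp5po) to -0.09 (Atp5pf), and 3 of them were lower. Atp5pf was called as well with quantile normalization (-0.35, adjusted p = 0.0018). Atp5mk, a small membrane subunit, was the only called rise of the complex, 1.54-fold higher (1.31 to 1.83, adjusted p = 4.19e-05), with 3.46 to 3.96 in round spermatids and 2.98 to 3.21 in pachytene spermatocytes. Within slide 1, with its single saline pachytene array, the difference was 0.48 (adjusted p = 0.126). Atp5if1, the inhibitor of the enzyme's reverse reaction, differed by 0.02 (-0.23 to 0.27).

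Of the 8 assembly factors caught by the prefixes, 5 were lower and 1 was higher, against 37.0% and 38.3% of all genes tested. Sdhaf1, which helps insert the iron-sulphur clusters of Sdhb, was 4.82-fold lower in round spermatids (4.04 to 5.76, adjusted p = 7.09e-13), with -1.32 to -0.85 in round spermatids and 0.82 to 1.24 in pachytene spermatocytes. Ndufaf4, a complex I factor, was 3.16-fold lower (2.27 to 4.38, adjusted p = 7.75e-07). Ndufaf1, also a complex I factor, was 0.36 higher on the log2 scale (adjusted p = 0.0094), with overlapping groups.

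**Figure D3:**
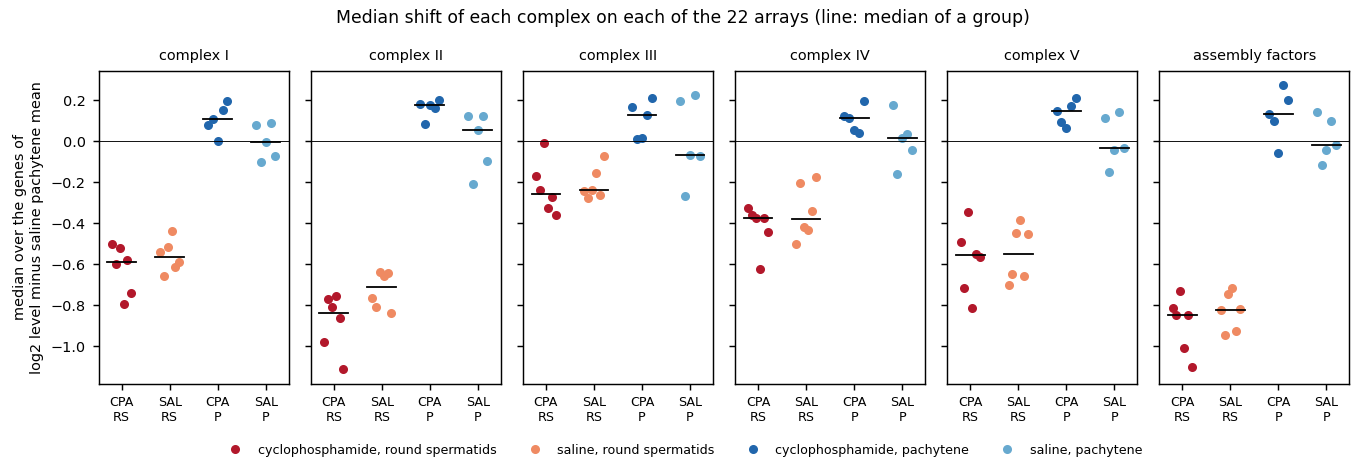
Median over the genes of each complex of the log2 level minus the saline pachytene mean, for each of the 22 arrays, in round spermatids (RS) and pachytene spermatocytes (P) of cyclophosphamide (CPA) and saline (SAL) rats. Complex II and the assembly factors lie lowest in round spermatids, and complex III overlaps between the cell types of saline rats.

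Genes with more than 1 probe served as a check within the gene. Of 22 other probes of 17 members, 19 were tested, 14 were called in the direction of the main probe's sign and 1 was called the opposite way. The exception was Ndufv3, a small complex I subunit, whose main probe gave -1.41 and another of whose probes gave 1.22. Ndufaf7 gave -0.06 with its main probe and -1.75 with the other, and Uqcrb gave -0.16 and -1.82. For 40 of the 85 members the gene table lists a pseudogene named after them, which could share signal. Of these 40, 28 were lower, and of the other 45, 27 were lower and 5 higher. Among all genes tested, 37.0% were lower and 38.3% higher.

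Genes that work beside the complexes were read from lists. In round spermatids, all 5 genes of cytochrome c and the mitochondrial nucleotide and phosphate carriers were lower, with a median difference of -1.15. Of all genes tested, 37.0% were lower. Slc25a4 (-1.85, adjusted p = 3.62e-07) and Slc25a5 (-1.70, adjusted p = 2.46e-08), which exchange ADP for ATP, fell most. Cyct, the testis form of cytochrome c, fell by 1.15 (adjusted p = 1.2e-07) and the common form Cycs by 0.45 (adjusted p = 0.00789).

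Assembly factors outside the naming rule were mostly lower as well, 26 of 35 tested, with 7 higher and a median of -1.11. The shares over all genes tested were 37.0% lower and 38.3% higher. Tmem70, which helps assemble complex V, fell by 3.03 (adjusted p = 6.99e-10) and Tmem126b, a complex I factor, by 2.37 (adjusted p = 3.53e-11). Coa5, a complex IV factor, rose by 2.80 (adjusted p = 4.74e-11) and Atpaf1, a complex V factor, by 1.94 (adjusted p = 6.64e-11).

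The citric acid cycle and pyruvate dehydrogenase list had 11 of 17 genes lower, 4 higher and a median of -0.35. Among all genes tested, 37.0% were lower and 38.3% higher. Fh, fumarase, fell by 1.90 (adjusted p = 8.21e-12) and Suclg2, of succinyl-CoA ligase, by 1.75 (adjusted p = 1.65e-11). Ogdh, of the oxoglutarate dehydrogenase complex, rose by 1.60 (adjusted p = 1.82e-09) and Sucla2 by 0.78 (adjusted p = 2.62e-06).

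Of 15 genes for mitochondrial DNA upkeep and transcription, 7 were lower and 4 higher, against 37.0% and 38.3% of all genes tested. Mgme1, an exonuclease (-2.15, adjusted p = 1.54e-09), and Tefm, an elongation factor (-2.11, adjusted p = 2.16e-09), fell most, and Top1mt, the mitochondrial topoisomerase (2.22, adjusted p = 2.72e-09), and Mterf2 (1.70, adjusted p = 1.04e-10) rose most. Of 8 nuclear regulators tested, 4 were lower and 3 higher, against the same 37.0% and 38.3% of all genes. The partners of GABP differed in direction, with Gabpb1 at -2.67 (adjusted p = 1.65e-14) and Gabpa at 1.28 (adjusted p = 2.6e-09). Esrra, an orphan nuclear receptor, fell by 1.52 (adjusted p = 2.77e-13) and Ppargc1b, a coactivator, rose by 2.41 (adjusted p = 8.07e-12).

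The same comparison in rats given cyclophosphamide rests on other arrays. There 64 of the 85 genes (75.3%) fell and 5 (5.9%) rose in round spermatids, against 40.4% falling and 38.8% rising among 19332 genes tested. Of the 55 genes lower in saline rats, all 55 were lower in cyclophosphamide rats, and 5 of the 8 higher genes were higher again. The differences across the 85 genes correlated at r = 0.992 (Spearman 0.989) as a description, since genes are not replicates and share their arrays. Cox6a2 differed by 2.77 in cyclophosphamide rats and 2.49 in saline rats, Atp5mc1 by -2.66 and -2.43, and Uqcrc2 by -1.75 and -1.60. In 77 genes the difference was lower in cyclophosphamide rats than in saline rats, by a median size of 0.20 over all 85. Of 9 genes called lower in cyclophosphamide rats but not in saline rats, Atp5pf (-0.40 in cyclophosphamide rats, -0.09 in saline rats) and Cox8c (-0.50 in cyclophosphamide rats, -0.28 in saline rats) are examples. With quantile normalization both were also called in saline rats, Atp5pf at -0.35 (adjusted p = 0.0018) and Cox8c at -0.51. None of these differences between the rats passed its own test, given below. Ndufa7 was not well above background on any of the 6 cyclophosphamide round spermatid arrays, so its level there is only an upper bound.

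**Figure D4:**
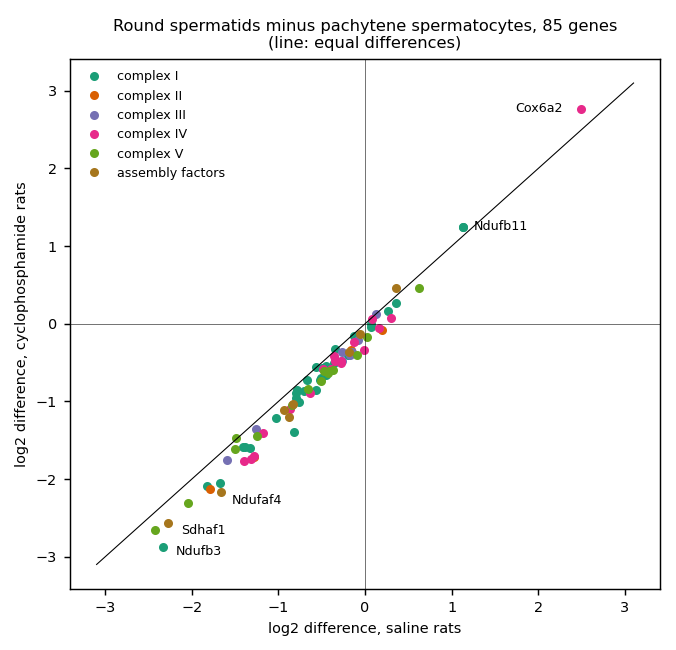
Log2 difference, round spermatids minus pachytene spermatocytes, of the 85 genes in cyclophosphamide rats (vertical) and saline rats (horizontal), coloured by complex. Points follow the line of equal differences (r = 0.992), with 77 of 85 below it.

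Cyclophosphamide was then set against saline within each cell type. In pachytene spermatocytes 0 of 85 members passed at an adjusted p of 0.05, as did 0% of all 18450 genes tested (limma). At an unadjusted p of 0.05, 3 members (3.53%) were higher and none lower, against 7.28% of all genes in either direction. The members' differences were small and mostly on the same side, with 77 of 85 above 0, against 10579 of all 18450 genes, and a median of 0.12, against 0.04 over all genes. Quantile normalization gave a median of 0.06 over the members and 0.02 over all genes. Within slides 1 to 4, with 1 or 2 arrays in a group, the members' median was -0.01, 0.22, 0.15 and 0.17, so it was not above 0 within slide 1. All 85 intervals lay within 2-fold, and 77 lay within 1.5-fold. Genes of complex V had a median of 0.14, those of complex II 0.16 and those of complex I 0.10.

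Atp5pf, a peripheral stalk subunit of complex V, had the smallest p. Its log2 levels were 4.12, 4.09, 4.02, 4.15 and 4.30 in cyclophosphamide pachytene samples, against 3.67, 3.54, 4.03, 4.06 and 3.83 in saline pachytene samples. The ranges overlapped slightly, and the difference was 0.31 (95% interval 0.08 to 0.53, unadjusted p = 0.00963, adjusted p = 0.683). Atp5f1b, the catalytic beta subunit, had 3.94, 3.68, 3.75, 3.98 and 3.99 in cyclophosphamide samples, against 3.46, 3.46, 3.48, 3.89 and 3.69 in saline samples. Its difference was 0.27 (0.06 to 0.48, unadjusted p = 0.0142, adjusted p = 0.683). The pseudogene transcript Cox6c-ps1 differed by 0.38 (0.08 to 0.69, unadjusted p = 0.0166, adjusted p = 0.683), with overlapping groups.

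Markers of round spermatids lay on the other side of 0 from most members. All 10 were below 0 in the same comparison, with a median of -0.45, 0 passing and 5 at an unadjusted p under 0.05. Their summed level was 148 to 311 in cyclophosphamide pachytene samples and 158 to 402 in saline pachytene samples. Of the 8 pachytene markers, 7 were above 0. All 7 macrophage genes were below 0, with a median of -0.18 and 2 at an unadjusted p under 0.05, as were the 3 peritubular myoid genes tested, with a median of -0.27. The macrophage sum was 0.49 to 1.17 in cyclophosphamide pachytene samples and 0.84 to 1.25 in saline pachytene samples. The part of these markers in the members' differences was not tested.

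In round spermatids 84 members were tested and 0 passed, as did 0% of 18843 genes. Only Ndufaf4 had an unadjusted p under 0.05 (1.19% of the members, against 3.32% of all genes). Of the 84 members 66 were below 0, against 10019 of all 18843 genes. The median was -0.05 over the members and -0.01 over all genes. All 84 intervals lay within 2-fold, and 80 lay within 1.5-fold. Ndufaf4 had log2 levels of -4.30 to -3.65 (median -4.12) in cyclophosphamide round spermatids and -3.99 to -3.09 (median -3.68) in saline round spermatids, and the ranges overlapped. Its difference was -0.47 (-0.92 to -0.02, unadjusted p = 0.0411, adjusted p = 1). Sdhc differed by -0.25 (-0.52 to 0.02) and Ndufb3 by -0.28 (-0.64 to 0.08), each with an adjusted p of 1. Without saline round spermatid rat 16 the difference of Ndufb3 was -0.15. Sdhc ran from -0.73 over a median of -0.27 to 0.003 in cyclophosphamide round spermatids, and Ndufb3 from -0.30 over a median of 0.04 to 0.25.

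**Figure D5:**
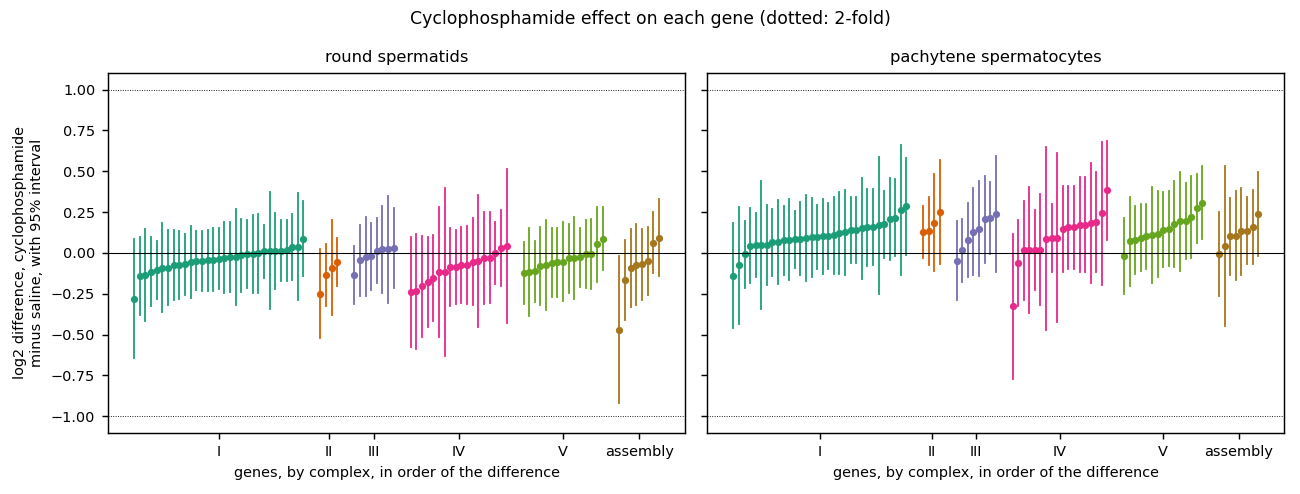
Log2 difference, cyclophosphamide minus saline, of each gene with its 95% interval, in round spermatids (left, 84 genes) and pachytene spermatocytes (right, 85 genes), by complex. All intervals stay within the dotted 2-fold lines, and 77 of the 85 pachytene estimates lie above 0.

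The drug effect was last compared between the cell types, as the effect in round spermatids minus that in pachytene spermatocytes. Again 0 of 85 members passed, as did 0% of 19643 genes tested, and 3 members (3.53%) had an unadjusted p under 0.05, against 7.65% of all genes. These were Sdhc (-0.43, 95% interval -0.84 to -0.03, unadjusted p = 0.0365), Atp5pf (-0.32, -0.62 to -0.01, unadjusted p = 0.0442) and Ndufb3 (-0.54, -1.08 to -0.003, unadjusted p = 0.0488), each with an adjusted p of 0.633. Of the 85 members 77 were below 0, with a median of -0.19, against 10898 of all 19643 genes and a median of -0.04. The spermatid markers were on the other side in this comparison, with all 10 above 0 and a median of 0.49. Their part in the members' values was not tested.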

How the data were processed

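Per the labels, total RNA of each sample was labelled with Cy3. The deposited scanner files hold each spot's processed signal as an intensity, background-subtracted by Agilent Feature Extraction and not scaled between arrays. The file headers name version 10.7.3.1 and the submitters' processing notes version 11.5.1.1. Control and outlier spots were left out and the spots of a probe averaged, leaving 30367 probes, of which 37 lacked a usable spot on at least 1 array. Between 65.3% and 76.4% of probes were well above background per array. The number of arrays, 5 or 6 in a group, limits the precision.

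The log2 of the intensity minus the array's 75th percentile was fitted with limma 3.58.1 (statmod 1.5.0, R 4.3.3) as 4 group means over all 22 arrays, two-sided, with Benjamini-Hochberg adjustment over all genes tested. A gene was tested where its probe was well above background (over 0.5 of its spots) on all but at most 1 array of a compared group. Symbols came from the RefSeq gene table of GRCr8 and covered 59.3% of the probes. Other steps ran in Python 3.11.15 (pandas 2.3.3, numpy 2.4.6), and figures were drawn with matplotlib 3.10.9. The fit was tested on simulated data.

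The authors' deposited value table holds log2 values of 30507 probes. Its columns correlated at 0.959 to 0.994 with their own array once the scanner values were centred on each probe's median within a cell type, and at 0.574 or less with other arrays, over 15165 brighter probes. The slopes were 0.904 to 1.006, so the scale is log2 and the direction is that of the signal. The column medians were -0.0098 to 0.007. The authors' scaling between arrays is not given in the sources used here. Because of the centring the table served as an alternative for the cyclophosphamide comparisons alone.

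The members and lists were chosen with earlier results of these data known. The genes named were the 2 largest called falls and rises of each complex whose saline samples did not overlap, Atp5mc1, Uqcrc2 and Sdhc, the tissue forms, the members on chromosome X, the 3 with the smallest p in each cyclophosphamide comparison, and the 2 largest falls and rises of each list. Other members are named for their role, chosen after their values were seen. Deviations of same-numbered samples across the cell types correlated at -0.09 to 0.38 in saline rats and 0.00 to 0.16 in cyclophosphamide rats. With only 3 such pairs in each treatment, these values cannot decide whether a shared number means a shared animal. Alternatives were quantile normalization, normexp background, filters, all probes of a gene, slides, an intensity trend, the replicate block, the authors' table and leaving out each sample. The scanner files used here hold median spot signals, which normexp therefore used in place of means. The comparison of testis and common protein forms was not made. The values of 1 complex I gene are not reported here, although it is included in the counts.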

Additional observations from a re-analysis of the deposited data

Results flagged for a closer look

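For 4 values the sample stood apart from the rest of its group by Dixon's test at the 95% level, among 156 groups of values examined, and chance flags about 1 in 20 groups. Cox6b2 had a log2 level of 5.915 in 1 of the 2 cyclophosphamide pachytene rats numbered 16, with the other 4 samples between 6.184 and 6.267. Cox7a2l had 2.627 in cyclophosphamide pachytene rat 29, with the others between 2.302 and 2.385. Cox8b had -4.528 in cyclophosphamide round spermatid rat 15, with the others between -5.113 and -4.935. Sdhaf1 had -0.852 in saline round spermatid rat 17, with the others between -1.323 and -1.181.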

How the results depend on the processing

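Counts of members called were recomputed under each alternative. Of 86 recomputed counts that left out no sample, 81 stayed within 1.5 times, and all 88 that left out 1 sample did. Both totals include the cyclophosphamide comparisons (10, 12 and 22 of the 88), where 0 against 0 was taken as unchanged. The exceptions came from fewer arrays. Members higher in round spermatids of saline rats numbered 3 within slide 1, 4 within slide 2 and 5 on slides 1 and 2 only, an alternative added after seeing the data, against 8. In cyclophosphamide rats 42 were lower within slide 1, against 64, and 3 were higher within slide 2, against 5. Leaving out each sample gave 53 to 58 lower and 6 to 8 higher in saline rats, 63 to 64 lower and 5 to 6 higher in cyclophosphamide rats, and 0 in each cyclophosphamide comparison. Quantile normalization gave 66 lower and 6 higher in saline rats, with the median of all genes at -0.09. It called 76.9% of all genes in either direction. Among single genes 1 value turned, Cox7a2l at -0.066 within slide 1 (adjusted p = 0.809). Of 495 recomputed values of single genes with no sample left out, 475 kept their direction and side of the threshold, and of 484 with 1 left out, 475 did. Whether equal rat numbers mark pairs is not known. The fit with the replicate block gave 55 lower and 8 higher in saline rats and 64 lower and 5 higher in cyclophosphamide rats. It gave 0 in each cyclophosphamide comparison, with a block correlation of 0.02 between the cell types and -0.06 between the treatments. Signal limits Ndufa7 most, which was near background in round spermatids.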
